A study of Mus musculus with 24 samples.

Results

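The p53 target genes examined here were 10 genes that the transcription factor p53 is known to activate, Cdkn1a, Mdm2, Fas, Bax, Bbc3, Ccng1, Zmat3, Trp53inp1, Phlda3 and Eda2r. They were chosen by name, but with earlier results of these data known. They were followed over all groups of the study as 10 of the 17111 genes of the deposited table. Bulk RNA sequencing covered 24 libraries of mouse muscle stem cells, which regenerate injured muscle, with 4 libraries in each of 6 groups. WT cells were labelled L2A-WT. KO cells were labelled L2A-Pax7CreER, in which a Cre recombinase driven by Pax7, a gene of muscle stem cells, targets Lamp2a, through which chaperone-mediated autophagy brings proteins into lysosomes. Each genotype was sampled without injury (day 0) and at 1 and 4 days after cardiotoxin, a toxin that destroys muscle fibres, was injected into the muscle (50 µL at 10 µM). No group was labelled as carrying the Cre with intact Lamp2a, so effects of the Cre allele and of Lamp2a loss cannot be told apart. Whether replicate libraries stem from different mice is not in the labels. The p-values therefore cover the spread between these samples alone, and that spread may be technical. In bulk libraries, fewer cells of a type and less RNA per cell cannot be told apart.

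The tumour suppressor p53 is made continuously and destroyed by the ubiquitin ligase Mdm2, which p53 itself induces. When DNA damage, oxidative stress or disturbed ribosome assembly frees p53 from this loop, it turns on genes that halt the cell cycle, repair damage or kill the cell. In muscle stem cells p53 is known for roles in the choice between quiescence, division and differentiation and in protection from death by mitotic catastrophe. Because p53 is controlled mainly at the level of the protein, the RNA of its targets and the RNA of p53 itself need not move together.

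To show what the gene starts of these targets hold, the 250 bases before each start site and the 50 after it were searched for the p53 half-site. This is the palindromic motif of which a pair, close together, makes a p53 response element. The RefSeq promoter table (GRCm38.p6, another build than the mm39 of the counts) had 11 promoters for 8 of the 10 genes. Zmat3 and Trp53inp1 had none there. A half-site was found in 4 of the 11 promoters, one each of Cdkn1a, Mdm2, Bax and Ccng1, against 8.36% of the 32817 promoters in the table. The 250 bases before the start of those 4 are printed here, 5′ to 3′ on the gene's own strand, with each half-site in capitals. The half-site reads the same on both strands, so one search covers both, and no other motif was searched.
Cdkn1a, upstream start, chr17:29090729-29090978 (+): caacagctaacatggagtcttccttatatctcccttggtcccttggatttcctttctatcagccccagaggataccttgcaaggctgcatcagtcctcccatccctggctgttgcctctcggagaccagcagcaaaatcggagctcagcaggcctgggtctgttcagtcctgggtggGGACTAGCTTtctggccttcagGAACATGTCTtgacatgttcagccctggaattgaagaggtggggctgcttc
Mdm2, chr10:117710759-117711008 (-): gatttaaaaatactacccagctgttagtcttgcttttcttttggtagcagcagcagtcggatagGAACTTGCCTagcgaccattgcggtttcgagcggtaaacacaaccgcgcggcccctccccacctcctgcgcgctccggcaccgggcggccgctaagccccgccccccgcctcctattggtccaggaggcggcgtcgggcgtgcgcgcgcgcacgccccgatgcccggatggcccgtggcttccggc
Bax, chr7:45466899-45467148 (-): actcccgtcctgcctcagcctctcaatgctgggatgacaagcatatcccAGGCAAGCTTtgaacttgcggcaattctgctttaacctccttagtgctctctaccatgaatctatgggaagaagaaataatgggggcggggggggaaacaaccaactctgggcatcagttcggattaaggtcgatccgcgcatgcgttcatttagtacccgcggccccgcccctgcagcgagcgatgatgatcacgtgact
Ccng1, chr11:40755287-40755536 (-): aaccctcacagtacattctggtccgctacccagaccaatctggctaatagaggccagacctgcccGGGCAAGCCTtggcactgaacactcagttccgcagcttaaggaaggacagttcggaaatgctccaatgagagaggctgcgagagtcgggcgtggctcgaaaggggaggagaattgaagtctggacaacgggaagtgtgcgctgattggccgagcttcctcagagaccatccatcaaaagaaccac
The upstream Cdkn1a start had half-sites at −73 to −64 and −51 to −42 from the start site. The search counted 2 exact half-sites with at most 13 bases between them as a full site, as here, which 0.0731% of all promoters held. It allowed no mismatch. The 10 bases directly after the second half-site miss the pattern at their first letter only. They are therefore not in capitals, and that closer pairing was not counted. Which pairing p53 binds was not tested. The other Cdkn1a start, 2790 bases downstream, had no half-site in its window. Mdm2 had a half-site at −186 to −177, Bax at −201 to −192 and Ccng1 at −185 to −176. The 10 bases directly before the Ccng1 half-site miss the pattern at a single letter, so that pairing was not counted either. Fas, Bbc3, Phlda3 and Eda2r had no match, which says only that these letters are not in this window. The p53 response elements known for Mdm2 lie in its first intron, outside the window. A match here is a description of sequence, not of binding.

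The targeted gene was read as the whole Lamp2 gene, which sums all its splice forms and does not check the loss of Lamp2a, and it passed the genotype test on no day, with group means from 209 to 676. Library depth ran from 11.58 to 22.47 M counts. The unit below is a normalised count, which is not divided by gene length, so levels are compared between groups and not between genes. Muscle stem cell markers were present in all groups, with Pax7 between 28.5 and 111 in every library and the summed level of 12 markers between 2857 and 4482 at days 0 and 1 and between 1128 and 1311 at day 4. Macrophage markers (20 genes) summed to 23.9 to 118 at days 0 and 1, but to 2368 to 2895 in WT and 1835 to 1966 in KO at day 4. The spread between libraries of a group was widest at day 0, where the median SD of log2 values was 0.56 in WT and 0.57 in KO over 8941 genes with a mean of at least 8, against 0.22 to 0.40 in the other groups. The 10 targets followed the same order, with median SDs of 0.69 and 0.72 at day 0 and 0.18 to 0.39 later. All 10 passed the filter on low values. Counts of Bbc3 were low, at 99 to 309 reads in all per group of 4 libraries. The exons of Cdkn1a overlap those of AC167363.2 on the opposite strand, and those of Bax overlap Gm45808 on the same strand, so both values are uncertain where reads are shared.

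KO cells carried more Cdkn1a than WT cells before injury and 1 day after it, and at day 1 Fas and Phlda3 were higher as well. At day 4 no target passed the test. Log2 differences were taken of value + 1, so they are too small for genes at low values, and a gene was called when limma's Benjamini-Hochberg adjusted p was under 0.05. At day 0, 3 of the 10 targets were called, Cdkn1a and Ccng1 higher and Trp53inp1 lower in KO, against 9.75% of all 16985 genes tested (4.82% higher and 4.93% lower). Groups of libraries did not overlap for 1 of the 10, Cdkn1a, against 6.97% of all genes. With day 1 libraries, 3 of the 10 were called, all higher in KO, against 9.2% of all genes (7.12% higher and 2.08% lower). The groups did not overlap at day 1 for 6 of the 10, all higher in KO, against 26.2% of all genes. The split of all genes at day 1 depended on the tool, with 1209 higher and 353 lower in limma and 1127 and 622 in DESeq2. Fitted by itself, with no spread from other days, day 1 gave 6 called targets against 23.3% of all genes, and day 0 gave 1 against 0.4%. The median log2 difference of the 10 was 0.71 at day 1 and 0.20 at day 0, where that of all genes was −0.03 and 0.

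At day 4, 0 of the 10 targets were called by limma, edgeR or DESeq2, against 1.05% of all genes by limma (0.53% higher and 0.524% lower; 60 genes and 25 in edgeR, 146 and 84 in DESeq2), and 1 of the 10 had an unadjusted p under 0.05. That one, Cdkn1a, was also the target whose groups did not overlap, against 7.7% of all genes, with lower values in KO. The difference at day 1 was tested against that at day 0, and 2 targets were called, Fas and Trp53inp1, both upward, against 11.6% of all genes (7.48% upward and 4.1% downward). For day 4 against day 0, 2 were called, Cdkn1a downward and Trp53inp1 upward, against 3.99% (1.98% downward and 2.01% upward). For day 4 against day 1, 2 were called, Cdkn1a and Fas, both downward, against 3.97% (0.759% upward and 3.21% downward). DESeq2 split the genes it called more evenly, at 1347 upward and 1345 downward for day 1 against day 0 and at 350 and 521 for day 4 against day 1. The plot of genotype differences sets the 10 targets side by side for each day.

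**Figure D1:**
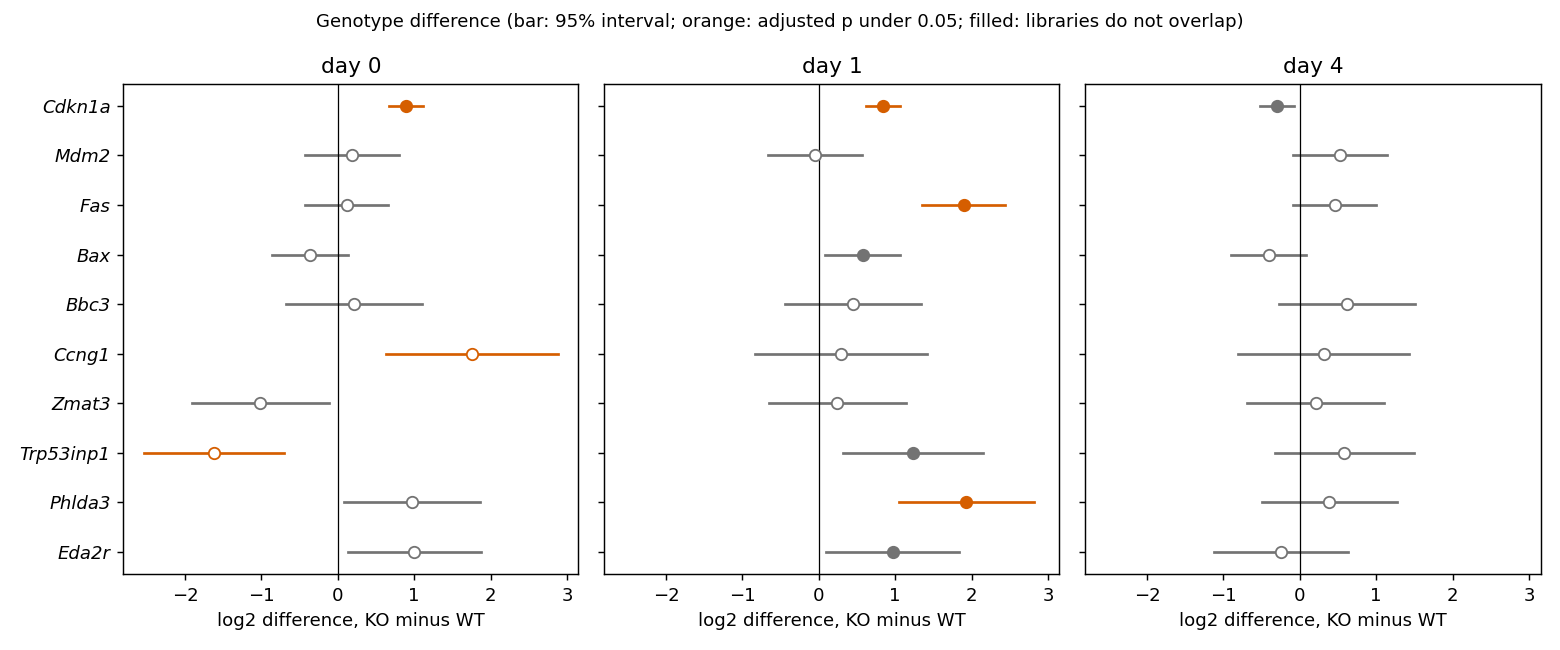
Log2 difference of KO minus WT for each p53 target at days 0, 1 and 4, with points for the estimate, bars for the 95% interval of the model over 24 libraries, orange for an adjusted p under 0.05 and filled points where the 4 KO and 4 WT libraries do not overlap. Cdkn1a is at 0.89, 0.84 and −0.29, and Fas and Phlda3 are at 1.90 and 1.93 at day 1.

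Some markers of muscle stem cells and of other cells also differed between genotypes at days 0 and 1, in directions that varied by list and day. Calls covered 9.75% of all genes at day 0 and 9.2% at day 1. Of 20 macrophage markers, 0 were called higher and 1 lower in KO at day 0, and 0 either way at day 1. Of 8 endothelial markers, 0 were called on either day. Of the 12 muscle stem cell markers, 0 were called higher and 1 lower in KO at day 0, and 2 higher and 4 lower at day 1, with sums of 2857 to 3588 in KO and 2857 to 3514 in WT at day 0 and of 3035 to 3911 and 3160 to 4482 at day 1. The one at day 0 was Myf5, a myogenic factor, at 111 ± 18.1 in WT and 41.9 ± 11.7 in KO (SD, n = 4), a log2 difference of −1.41. At day 1, Pax7 was at 85.25 ± 10.1 in WT and 32.01 ± 3.70 in KO, a difference of −1.385 ± 0.23 (limma, adjusted p = 0.000167), and Chodl and Calcr differed by −2.39 and −1.41 and Sdc4 by 1.05. Of 20 immediate early genes, which respond within minutes to stimulation, 2 were called higher and 1 lower in KO at day 0. At day 1, 4 were called higher and 6 lower, among them Btg1 at 2.10, Fosb at −2.08 and Egr1 at −1.205. Sums of the 20 genes were 4269 to 5096 in KO and 4009 to 4443 in WT at day 0, and 3179 to 3950 and 3658 to 4627 at day 1. Summed levels of 13 fibro-adipogenic progenitor markers were 2163 to 2620 in KO and 965 to 1303 in WT at day 0, and 1730 to 2489 and 881 to 1268 at day 1. Of the 13, 4 were called higher at day 0 and 3 at day 1, the others not called, while the defining marker Pdgfra had no count in WT at day 0 and means of 0.490 in KO at day 0, 0.0749 in WT at day 1 and 3.17 in KO at day 1, where 1 library was at 11.6. The sums of 13 myofibre markers were 107 to 147 in KO and 48.3 to 73.3 in WT at day 0, and 64.1 to 100.3 in KO and 228 to 310.0 in WT at day 1, where 9 of the 13 were called lower in KO. Myh1 had no count in WT and Myh4 none in KO at day 0. The part of these markers and of the cells they mark in the differences of p53 targets was not tested.

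The RNA of p53 itself did not differ between genotypes by the test at any day. Trp53, which encodes p53, had day 0 means of 320 ± 65.8 (SD, n = 4) for WT and 243 ± 71.4 for KO, with 314 ± 18.8 and 471 ± 15.6 at day 1, and 72.4 ± 16.9 and 54.98 ± 15.6 at day 4. At day 1 the 4 KO libraries, at 457 to 490.3, all lay above the WT libraries, at 298 to 340.3. The log2 difference of 0.585 ± 0.21 (SE) was not called there (limma, adjusted p = 0.0972). It was called when the model held the 8 day 1 libraries alone (limma, adjusted p = 0.000783). Trp53 rose by 1.01 ± 0.21 from day 0 to day 1 in KO (limma, adjusted p = 0.000423) and differed by −0.01 ± 0.21 in WT. The genotype difference of Trp53 changed by 1.02 ± 0.30 between those days (limma, adjusted p = 0.0281). Under quantile normalization this change was 0.60, the KO rise was 0.59 and the day 1 genotype difference was 0.30. By day 4 Trp53 had fallen from day 0, with log2 changes of −2.14 ± 0.21 in WT and −2.11 ± 0.21 in KO (−1.39 and −1.64 under quantile normalization).

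Mdm2 (ENSMUSG00000020184), the ligase that degrades p53, rose with injury in both genotypes. It stood at 28.9, 43.7, 59.9 and 79.4 in WT and at 34.01, 72.7, 70.6 and 58.9 in KO at day 0. At day 1 the WT libraries were at 77.4, 72.8, 93.2 and 73.4 and the KO libraries at 118.9, 55.3, 108.9 and 47.0. At day 4 they were at 163, 149, 182 and 168 in WT and at 270.05, 268, 267 and 168 in KO. All 8 day 4 libraries lay above all 16 earlier ones, while the genotypes overlapped on every day. Between days 0 and 4 Mdm2 rose by 1.72 ± 0.30 on the log2 scale in WT (limma, adjusted p = 4.92e-05) and by 2.055 ± 0.30 in KO (5.26e-06). From day 1 to day 4 the rises were 1.06 and 1.63, and from day 0 to day 1 the changes of 0.66 and 0.42 were not called. Quantile normalization enlarged the rises to day 4, to 2.46 and 2.77 from day 0 and to 1.97 and 2.63 from day 1. The genotype difference at day 4 was 0.53 (95% interval −0.08 to 1.14) and was not called (limma, adjusted p = 0.671).

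Mdm4, the relative of Mdm2 that blocks p53 without degrading it, went another way over the days. It had means of 118 ± 61.4 (WT) and 102 ± 27.7 (KO) at day 0, 58.8 ± 8.35 and 47.7 ± 7.70 at day 1, and 135 ± 14.2 and 107 ± 18.8 at day 4 (SD, n = 4). The fall to day 1 was called in both genotypes, at −0.80 ± 0.31 in WT (limma, adjusted p = 0.0330, but 0.168 with the WT libraries of those days alone) and −1.05 ± 0.31 in KO (0.00708). The rise from day 1 to day 4 was called too, at 1.19 in WT and 1.14 in KO (2.05 and 1.89 under quantile normalization). No genotype difference of Mdm4 was called. Of 23 genes of the p53 family and its regulators, 0 were called higher and 2 lower in KO at day 0, 2 higher and 2 lower at day 1, and 0 higher and 1 lower at day 4. The shares of all genes called were 9.75%, 9.2% and 1.05% at days 0, 1 and 4. Crebbp, an acetyltransferase that acetylates p53, was lower in KO at day 0 (−0.72 ± 0.14) and higher at day 1 (0.74 ± 0.14).

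**Figure D2:**
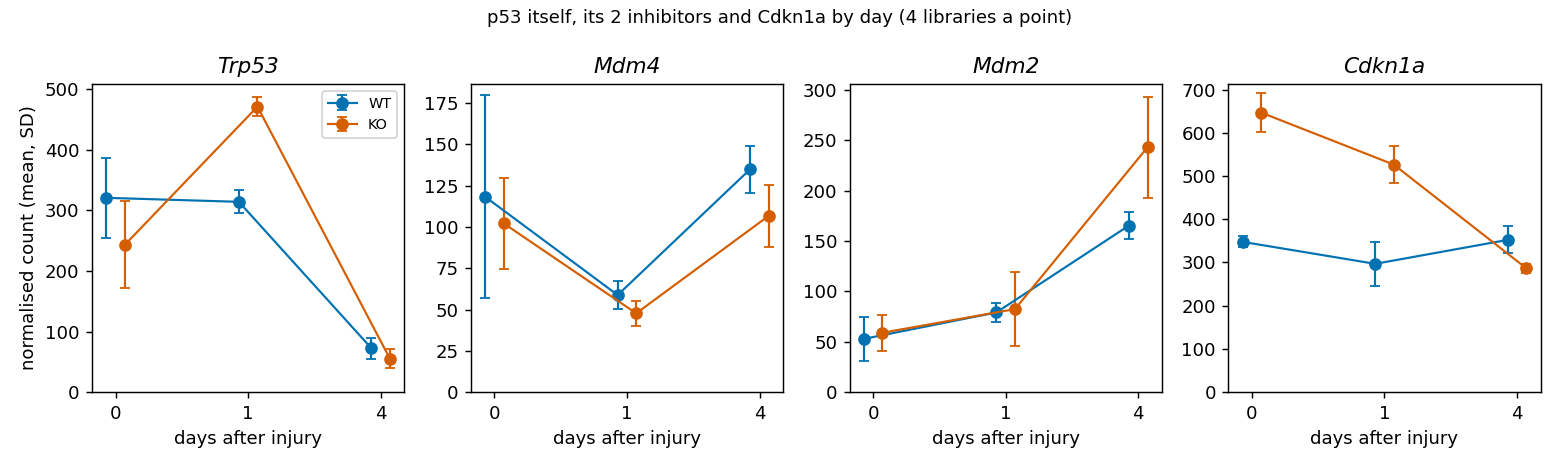
Mean normalised count, with SD bars over 4 libraries, of Trp53, Mdm4, Mdm2 and Cdkn1a in WT (blue) and KO (orange) at days 0, 1 and 4 of injury, drawn at equal spacing. Trp53 is lowest at day 4 (72.4 and 54.98), where Mdm2 is highest (166 and 243), and Cdkn1a in KO is at 647, 526 and 287.

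Cdkn1a (ENSMUSG00000023067) encodes p21, the inhibitor of cyclin-dependent kinases through which p53 stops the cell cycle. Its values at day 0 were 351, 354, 329 and 356 in WT and 687, 632, 590.1 and 678 in KO. At day 1 they were 349, 326, 273 and 239 in WT and 528, 477, 579.5 and 522 in KO. WT libraries of day 4 stood at 366, 306, 374 and 364, and KO libraries at 284, 279, 282 and 302. Every KO library was above every WT library at days 0 and 1, and every KO library was below every WT library at day 4. The log2 difference was 0.89 ± 0.11 at day 0 (limma, adjusted p = 8.27e-06), a ratio of means of 1.86, and 0.84 ± 0.11 at day 1 (7.51e-06), a ratio of 1.77. Under quantile normalization the day 1 difference was 0.53 and was still called (limma, adjusted p = 0.00332). At day 4 it was −0.29 ± 0.11, with a ratio of 0.814, and was not called (limma, adjusted p = 0.319).

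The genotype difference of Cdkn1a did not change detectably from day 0 to day 1, by −0.06 (95% interval −0.37 to 0.26). It changed by −1.18 ± 0.15 from day 0 to day 4 (limma, adjusted p = 4.62e-05) and by −1.13 ± 0.15 from day 1 to day 4 (5.09e-05). In order of the means, KO at day 0 and KO at day 1 stood clear of each other and of all other groups, and the remaining groups, from 352 in WT at day 4 down to 287 in KO at day 4, overlapped their neighbours in that order. Within KO, Cdkn1a fell by 0.30 ± 0.11 from day 0 to day 1 (limma, adjusted p = 0.0274) and by 1.17 ± 0.11 from day 0 to day 4 (4.70e-09). The first of these was not called with no mean-variance trend (0.136) or with library weights (0.170, the highest over all alternatives). Nor was it called without KO day 0 replicate 1 or 4 or KO day 1 replicate 2 or 4. In WT the changes of −0.24, 0.02 and 0.26 for day 1 against 0, day 4 against 0 and day 4 against 1 were not called. The last of these, at an adjusted p of 0.0505 in limma, was called in DESeq2 (0.00561), under the stricter filter, with library weights, with a pseudocount of 0.5 and without WT day 1 replicate 1 or 2 or WT day 4 replicate 2, within a range of 3.91e-10 to 0.235. The changes to day 4 depended on the scaling. Quantile normalization made WT day 4 higher than day 0 by 1.175 (limma, adjusted p = 9.53e-09) and than day 1 by 1.38 (3.91e-10). In KO it gave −0.15 for day 4 against day 0 (not called) and turned the fall of 0.87 from day 1 to day 4 into a rise of 0.46 (limma, adjusted p = 0.00170). Quantile normalization moved the median log2 change of all genes from 0.23 to −0.02 in WT and from 0.18 to −0.02 in KO for day 4 against day 0, and from 0.22 to 0 and from 0.18 to 0.01 for day 4 against day 1.

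Ccng1 (ENSMUSG00000020326) encodes cyclin G1, which recruits a phosphatase to Mdm2 and so feeds back on p53. At day 0 it stood at 7.53, 5.95, 1.04 and 33.4 in WT and at 10.8, 41.1, 19.6 and 52.4 in KO. One WT library, replicate 4, lay above 2 of the KO libraries, so the groups overlapped. The difference of 1.76 ± 0.54 was called (limma, adjusted p = 0.0407). That call was lost in edgeR (adjusted p = 0.162), DESeq2 (0.0858), the 8 day 0 libraries alone (0.487), quantile normalization (0.0537), a pseudocount of 5, library weights, no mean-variance trend and fits without WT day 0 replicate 1, 2 or 3 or KO day 0 replicate 2 or 4, within a range of 0.00131 to 0.487 over all alternatives. The difference was 1.10 without WT day 0 replicate 3 and 2.46 without WT day 0 replicate 4. At day 1 the WT libraries were at 47.5, 56.0, 58.5 and 47.2 and the KO libraries at 64.8, 89.9, 75.4 and 38.0. At day 4 they were at 21.7, 29.2, 25.8 and 36.0 in WT and at 26.8, 48.9, 38.8 and 28.0 in KO. WT libraries were higher at day 1 than at day 0 without overlap, by 2.725 ± 0.54 (limma, adjusted p = 0.000176), while the KO rise of 1.26 ± 0.54 was not called (0.0622). The WT rise ran from 2.07 without WT day 0 replicate 3 to 3.42 without WT day 0 replicate 4. The rise from day 0 to day 4 in WT, 1.84 ± 0.54, was called (0.00812), but not in edgeR (0.117) or in the WT libraries of those days alone (0.0632), and ran from 1.18 to 2.54 without the same replicates.

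**Figure D3:**
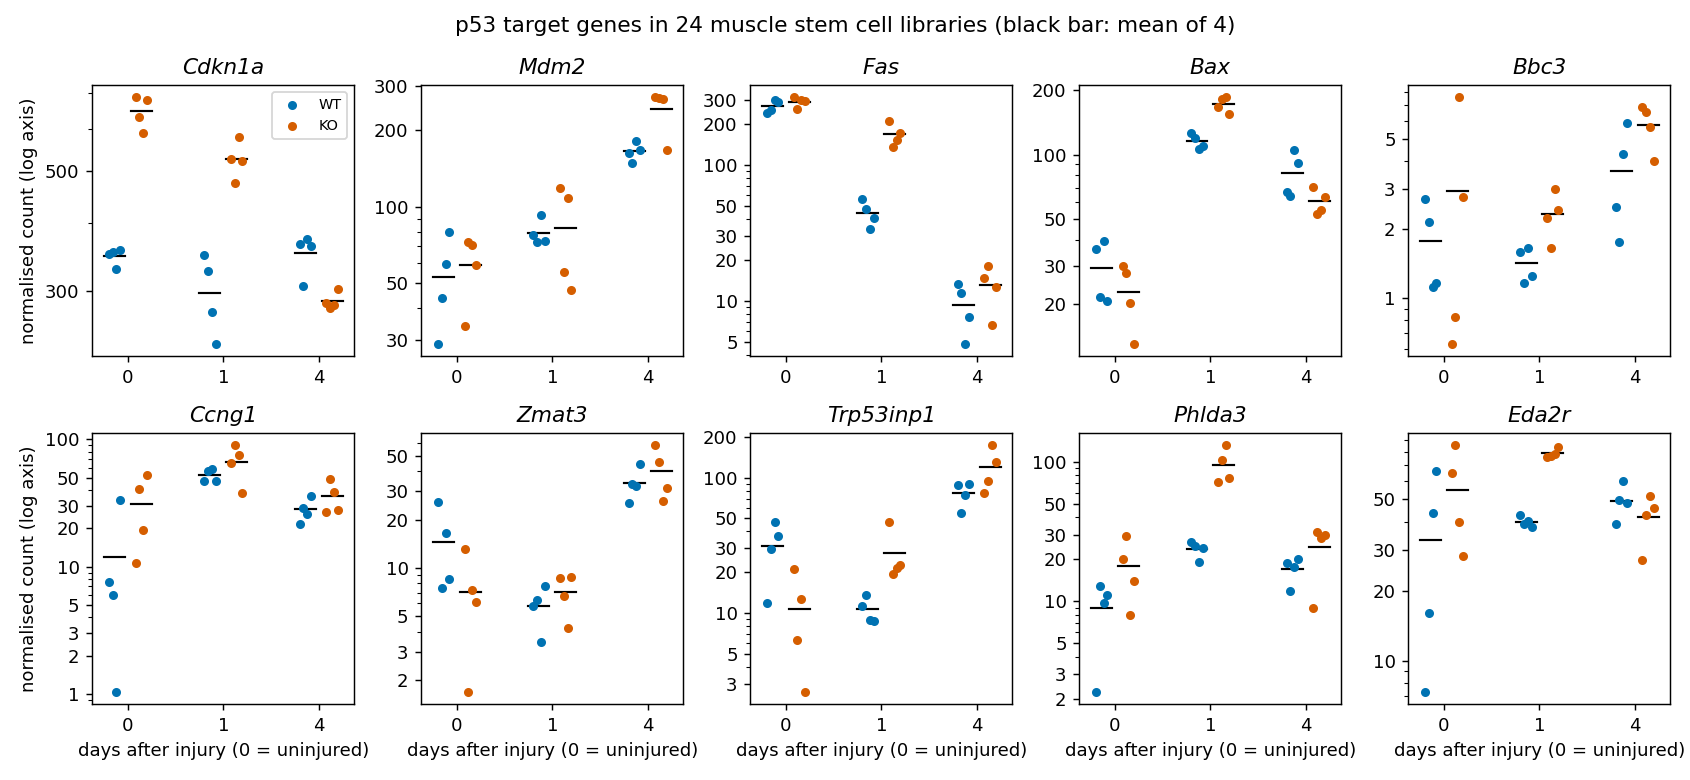
Normalised counts of the 10 p53 targets in each of the 24 libraries on a log axis that differs between panels, by day of injury, with WT in blue, KO in orange and black bars for the mean of 4 libraries. KO points lie above all WT points for Cdkn1a at days 0 and 1, and for Fas, Bax, Trp53inp1, Phlda3 and Eda2r at day 1.

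Fas (ENSMUSG00000024778) encodes the death receptor bound by Fas ligand. It was high in uninjured cells of both genotypes, at 239, 251, 298 and 289 in WT and at 314, 258, 299 and 294 in KO. One day after injury it stood at 56.0, 47.1, 33.8 and 40.7 in WT and at 211, 135, 152 and 172 in KO. At day 4 it was at 13.3, 11.5, 4.86 and 7.62 in WT and at 14.8, 18.2, 6.66 and 12.7 in KO. The lowest KO library of day 1 was more than any WT library of that day, and the genotypes overlapped at days 0 and 4. The day 1 difference was 1.90 ± 0.26 (limma, adjusted p = 1.82e-05), a ratio of means of 3.77, against 0.12 ± 0.26 at day 0 and 0.46 ± 0.26 at day 4. It exceeded the day 0 difference by 1.78 ± 0.37 (limma, adjusted p = 0.00219). The change from day 1 to day 4, −1.44 ± 0.37, was called as well (0.0250), within a range of 0.00336 to 0.219 over all alternatives. It was not called under quantile normalization (−1.11, 0.219) or with no mean-variance trend (0.0514). Nor was it called without WT day 1 replicate 3 or 4, KO day 1 replicate 1 or 4, WT day 4 replicate 1 or 2 or KO day 4 replicate 3.

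Fas fell in every comparison of a later with an earlier day. Its log2 change from day 0 to day 1 was −2.59 ± 0.26 in WT and −0.81 ± 0.26 in KO (limma, adjusted p = 1.45e-08 and 0.0137). The KO change was not called with library weights (limma, adjusted p = 0.0561). The change from day 0 to day 4 was −4.79 ± 0.26 in WT and −4.45 ± 0.26 in KO. The lowest groups in order of the means were KO at day 4 (13.1) and WT at day 4 (9.31), which overlapped. Over the same days the summed level of muscle stem cell markers fell and that of macrophage markers rose as given above. Their part in the fall of Fas was not tested.

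Eda2r (ENSMUSG00000034457) encodes the receptor of ectodysplasin A2, a member of the tumour necrosis factor receptor family. Its day 0 values spread widely, at 7.33, 16.02, 43.5 and 66.5 in WT and at 65.2, 85.5, 39.7 and 28.4 in KO. They were close together at day 1, at 42.5, 39.2, 40.2 and 37.9 in WT and at 76.0, 77.0, 78.8 and 84.0 in KO. At day 4 they were 39.1, 49.4, 60.02 and 48.1 in WT and 27.4, 42.9, 51.9 and 45.7 in KO. The lowest KO library of day 1 stood well above the highest WT library, while the genotypes overlapped on the other days. With the spread of all 24 libraries the day 1 difference of 0.965 ± 0.42 was not called (limma, adjusted p = 0.200). In a model of the 8 day 1 libraries alone it was (0.000181). The difference of 1.00 ± 0.42 at day 0 was not called (0.144) but was without WT day 0 replicate 4 (0.0188, the lowest of a range up to 0.615). Eda2r was called in none of the 9 comparisons of 2 groups, in which all other targets were called at least once.

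Bax (ENSMUSG00000003873) encodes the protein that opens the outer mitochondrial membrane in apoptosis. Its day 0 values were 36.2, 21.6, 39.3 and 20.6 in WT and 29.96, 27.9, 20.2 and 13.01 in KO. One day after injury they were 126, 119.6, 107 and 109.7 in WT and 167, 183, 186 and 155 in KO. Values at day 4 were 67.0, 64.0, 105 and 91.0 in WT and 70.4, 52.9, 55.4 and 63.6 in KO. Every injured library was above every uninjured one, and at day 1 every KO library was above every WT library. Bax rose by 1.99 ± 0.24 in WT and 2.93 ± 0.24 in KO from day 0 to day 1 (limma, adjusted p = 2.05e-07 and 5.43e-10), and by 1.47 and 1.43 from day 0 to day 4. The genotype difference at day 1, 0.575 ± 0.24 with a ratio of means of 1.49, was not called (0.165) with all libraries, but was with the 8 day 1 libraries alone (0.00283). In KO, Bax fell by 1.501 ± 0.24 from day 1 to day 4 (1.28e-05), and by 0.72 under quantile normalization (0.0146). The WT change of −0.52 ± 0.24 was not called (0.0728), and its sign turned under quantile normalization (0.23).

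Bbc3 (ENSMUSG00000002083) encodes PUMA, a BH3-only activator of apoptosis, and was read at few counts. Its values were 2.72, 2.15, 1.12 and 1.16 in WT and 0.630, 0.823, 7.59 and 2.79 in KO at day 0. At day 1 they were 1.60, 1.17, 1.66 and 1.26 in WT and 2.25, 1.66, 2.998 and 2.43 in KO, and at day 4 they were 2.52, 1.75, 4.28 and 5.83 in WT and 6.87, 6.53, 5.63 and 3.99 in KO. All groups overlapped their neighbours in order of the means. The KO rise of 1.09 ± 0.43 from day 0 to day 4 was called (limma, adjusted p = 0.0470), but not in edgeR (0.315), DESeq2 (0.180) or the KO libraries of those days alone (0.215), with the replicate number as a block (0.0513), under quantile normalization (0.48, 0.401), with library weights or a pseudocount of 5, nor without KO day 0 replicate 1 or 2 or KO day 4 replicate 1, 2 or 3, within a range of 0.00247 to 0.401. No genotype difference of Bbc3 was called.

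Phlda3 (ENSMUSG00000041801) encodes a protein that competes with the survival kinase Akt for membrane lipids. It stood at 2.24, 12.8, 9.66 and 11.1 in WT and at 19.9, 29.3, 7.98 and 13.9 in KO at day 0. At day 1 it stood at 26.5, 24.7, 19.1 and 24.2 in WT and at 70.9, 101.9, 131 and 76.4 in KO. Day 4 values were 18.8, 11.9, 17.4 and 20.2 in WT and 8.91, 31.3, 28.4 and 29.8 in KO. The 4 KO libraries of day 1 lay above all 20 other libraries. The day 1 difference was 1.93 ± 0.43 (limma, adjusted p = 0.00381), a ratio of means of 4.02, and the differences of 0.97 ± 0.43 at day 0 and 0.39 ± 0.43 at day 4 were not called (0.165 and 0.912). The change of this difference was not called either, at 0.96 ± 0.61 for day 1 against day 0 (0.353) and −1.54 ± 0.61 for day 4 against day 1 (0.206, but 0.0334 with the 16 libraries of those days alone). Phlda3 rose by 1.49 ± 0.43 in WT and by 2.45 ± 0.43 in KO from day 0 to day 1 (0.00523 and 5.06e-05), and in KO it fell by 2.01 ± 0.43 from day 1 to day 4 (0.000427).

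Trp53inp1 (ENSMUSG00000028211), which encodes a stress protein that works with p53 and in autophagy, changed its genotype difference between days. At day 0 it stood at 11.7, 29.8, 46.8 and 36.8 in WT and at 20.9, 6.33, 12.6 and 2.60 in KO. At day 1 the WT libraries were at 11.3, 13.6, 8.84 and 8.64 and the KO libraries at 46.9, 19.5, 21.5 and 22.6. At day 4 they were at 87.4, 54.7, 74.2 and 89.7 in WT and at 76.3, 94.4, 173 and 131 in KO. KO was mostly low at day 0 with 1 WT library among its values, was above all WT libraries at day 1, and overlapped WT at day 4. The difference was −1.62 ± 0.44 at day 0 (limma, adjusted p = 0.0203). It was not called there with library weights (0.152) or when day 0 was fitted by itself (0.374, in a range from 0.00397). Nor was it called without WT day 0 replicate 3 or 4 or KO day 0 replicate 4. At day 1 it was 1.23 ± 0.44 (0.0912, but 0.0170 when day 1 was fitted by itself). Its change from day 0 to day 1, 2.86 ± 0.63, was called (0.00341) under all alternatives run. Its change from day 0 to day 4, 2.21 ± 0.63, was called (0.0457) but not in edgeR (0.0652), with the replicate number as a block (0.0584), with no mean-variance trend, with library weights, with those days alone (0.131) or without any of 12 single libraries of days 0 and 4.

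Between days 0 and 1 Trp53inp1 fell by 1.34 ± 0.44 in WT (limma, adjusted p = 0.0133) and rose by 1.51 ± 0.44 in KO (0.00701). The fall was not called without WT day 0 replicate 3 (0.0531, in a range from 0.00185), and the rise was not called with the KO libraries of those days alone (0.0638, in a range from 0.000860). Between days 0 and 4 it rose by 1.39 ± 0.44 in WT (0.0130; 0.0670 without WT day 0 replicate 1) and by 3.599 ± 0.44 in KO (4.97e-07). Of the 10 targets, Trp53inp1 and Fas were called in all 6 comparisons of days within a genotype.

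Zmat3 (ENSMUSG00000027663) encodes an RNA-binding zinc finger protein that alters splicing and RNA stability. It stood at 25.6, 7.48, 16.4 and 8.47 in WT and at 13.1, 1.68, 7.31 and 6.16 in KO at day 0. At day 1 it stood at 5.79, 6.31, 3.45 and 7.70 in WT and at 8.64, 6.65, 4.20 and 8.80 in KO, and at day 4 at 25.3, 33.2, 32.6 and 44.5 in WT and at 58.2, 45.6, 26.2 and 31.6 in KO. Day 4 libraries were above all day 1 libraries in both genotypes, and the genotypes overlapped on every day. Zmat3 rose by 2.37 ± 0.43 in WT and by 2.34 ± 0.43 in KO from day 1 to day 4 (limma, adjusted p = 8.28e-05 and 8.91e-05). The WT fall of 1.07 ± 0.43 from day 0 to day 1 was called (0.0413). It was not called with the WT libraries of those days alone (0.0768) or with library weights (0.0758). Nor was it called without WT day 0 replicate 1 or 3 or WT day 1 replicate 1, 2 or 3, in a range up to 0.165. No genotype difference was called, the largest being −1.01 at day 0 (95% interval −1.91 to −0.12; limma, adjusted p = 0.151).

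In each comparison of days 4 to 7 of the 10 targets were called, in both directions, where 40.5% to 52.6% of all genes were called. In WT, 6 were called from day 0 to day 1, 3 higher and 3 lower, against 52.6% of all genes (27.7% higher and 24.9% lower). For WT day 4 against day 0, 6 were called, 5 higher and 1 lower, against 44.6% (25.7% and 18.9%). For WT day 4 against day 1, 4 were called, 3 higher and 1 lower, against 50.4% (27.8% and 22.6%). In KO, 5 were called from day 0 to day 1, 3 higher and 2 lower, against 45.6% (24.2% and 21.5%). For KO day 4 against day 0, 7 were called, 5 higher and 2 lower, against 40.5% (22.3% and 18.2%), and for KO day 4 against day 1, 7 were called, 3 higher and 4 lower, against 49.6% (26.2% and 23.4%). Groups did not overlap in WT for 4 targets between days 0 and 1 (49.5% of all genes), 4 between days 0 and 4 (39%) and 7 between days 1 and 4 (62.4%). In KO these numbers were 4 (40.2%), 6 (28.9%) and 9 (50.1%). The shares of targets thus lay near those of all genes in WT, and the difference from the background was not tested in either genotype. In all day comparisons with day 4, macrophage markers rose in 18 to 20 of 20 cases, and from day 0 to day 4 immediate early genes fell in 18 of 20 in each genotype. Their part in the changes of p53 targets was not tested.

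**Figure D4:**
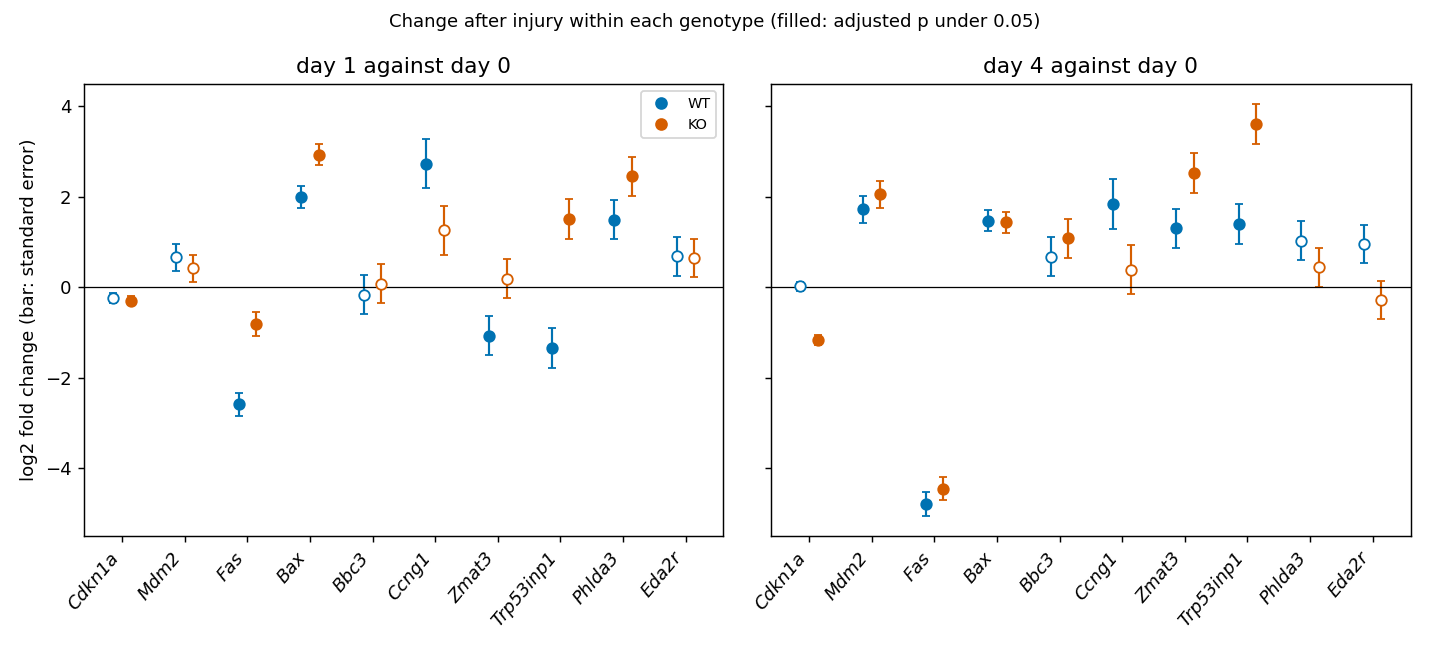
Log2 fold change of each p53 target from day 0 to day 1 (left) and from day 0 to day 4 (right) in WT (blue) and KO (orange), with standard errors of the model and filled points for an adjusted p under 0.05. Fas is the lowest in both panels for WT, at −2.59 and −4.79, and Trp53inp1 is at −1.34 in WT and 1.51 in KO at day 1.

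Among 46 other genes known as p53 targets, 7 were called higher and 1 lower in KO at day 0, 3 higher and 1 lower at day 1, and 0 at day 4. Of all genes, 4.82% were called higher and 4.93% lower at day 0, 7.12% and 2.08% at day 1, and 0.53% and 0.524% at day 4. The difference of this list from all genes was not tested. Their median log2 difference was 0.27 at day 0 and −0.09 at day 1, where that of all genes was 0 and −0.03. The day 0 mean of Gdf15, a stress-induced cytokine, was 53.1 ± 22.2 for WT and 167.5 ± 44.9 for KO (SD, n = 4), against 15.6 ± 2.15 and 413 ± 34.4 at day 1. Its log2 difference was 1.70 ± 0.26 at day 0 and 4.65 ± 0.26 at day 1 (limma, adjusted p = 0.000158 and 4.51e-12). Plk2, a kinase of the stress response, was higher in KO at day 0, at 103 ± 32.7 against 23.5 ± 13.2, with a difference of 2.25 ± 0.36 (limma, adjusted p = 0.000258). At day 1 it averaged 97.7 and 97.1. Tnfrsf10b, a death receptor for TRAIL, was higher in KO by 1.19 ± 0.30 at day 0 and 1.03 ± 0.30 at day 1 (limma, adjusted p = 0.0123 and 0.0287), from means of 5.20 and 6.10 in WT.

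Of the 46, 1 was called lower in KO at day 0 and 1 at day 1, against 7 and 3 called higher. Gadd45a, a growth arrest gene, had means of 118 ± 3.65 (WT) and 75.9 ± 15.8 (KO) at day 0, a difference of −0.65 ± 0.16 (limma, adjusted p = 0.00989). Its day 4 means ran the other way, at 85.3 in WT and 125.7 in KO, where no gene of this list was called. Btg2, an antiproliferative gene that is also induced early on stimulation, had means of 242 ± 26.3 (WT) and 110.4 ± 20.6 (KO) at day 1, a difference of −1.14 ± 0.25 (0.00359). At day 0 the Btg2 libraries of KO, at 154.6 to 193.9, all lay above those of WT, at 104.6 to 120.3. Slc19a2, a thiamine transporter, was higher in KO at day 1 by 1.43 ± 0.40 (0.0215). Over the days, 22 of the 46 rose and 5 fell from day 0 to day 1 in WT, and 18 rose and 8 fell in KO, where 27.7% of all genes rose and 24.9% fell in WT, and 24.2% and 21.5% in KO. Between days 0 and 4, 21 rose and 10 fell in WT and 14 rose and 10 fell in KO, against 25.7% and 18.9% of all genes in WT and 22.3% and 18.2% in KO. The DNA repair gene Xpc rose by 3.28 ± 0.54 in WT and 3.17 ± 0.54 in KO over those 4 days, and Btg2 fell by 2.65 ± 0.25 and by 3.34 ± 0.25.

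Other genes of the same pathways were set beside the targets, and Pmaip1, Apaf1 and Tnfrsf10b of these lists are also among the 46 other p53 targets. Between genotypes, 9.75% of all genes were called at day 0, 9.2% at day 1 and 1.05% at day 4. Of 13 genes of the BCL2 family, to which Bax and Bbc3 belong, 1 was called higher and 0 lower in KO at day 0. At day 1, 1 was called higher and 1 lower, and 0 were called at day 4. The antiapoptotic Mcl1 had means of 88.6 ± 9.77 (WT) and 172 ± 22.99 (KO) at day 1, a difference of 0.945 ± 0.13 (limma, adjusted p = 2.27e-05). Bcl2, also antiapoptotic, averaged 35.5 ± 1.75 in WT and 13.5 ± 4.39 in KO, a difference of −1.37 ± 0.31 (0.00417). Of 16 death receptor and caspase genes, Tnfrsf10b was the one called at day 0 and at day 1. Of 5 inhibitors of cyclin-dependent kinases other than Cdkn1a, 2 were called higher in KO at day 0, and 0 were called at days 1 and 4. Cdkn1c, which encodes p57, had means of 8.95 ± 6.59 (WT) and 57.6 ± 27.1 (KO) at day 0 (2.73 ± 0.53; limma, adjusted p = 0.00149), and Cdkn2d differed by 0.83 ± 0.25 (0.0338).

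Cell cycle genes that p53 and p21 are known to lower through the DREAM complex, a repressor of cell cycle promoters, were followed as a list of 20. At day 0, 3 were called higher and 0 lower in KO, with a median difference of 1.42. At day 1, 0 were called higher and 1 lower (median −0.66), and at day 4, 0 were called higher and 1 lower (median −0.90). Over all genes, 9.75%, 9.2% and 1.05% were called at days 0, 1 and 4, with medians of 0, −0.03 and −0.03. From day 0 to day 1, 14 of the 20 rose and 0 fell in WT, while 3 rose and 3 fell in KO, against 27.7% of all genes higher and 24.9% lower in WT and 24.2% and 21.5% in KO. Between days 0 and 4, 20 rose in WT and 10 in KO, against 25.7% and 22.3% of all genes, and 0 fell in either. The genotype difference of these 20 genes was called lower for 4 and higher for 0 at day 1 than at day 0. Over all genes it was called lower for 4.1% and higher for 7.48%. Mki67, a marker of dividing cells, had means of 0.694 ± 1.03 (WT) and 12.4 ± 20.7 (KO) at day 0 (SD, n = 4), where one KO library was at 43.4. At day 4 it averaged 59.6 ± 7.75 in WT and 42.4 ± 11 in KO.

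The genes whose pattern over the 24 libraries was most like that of a target were found by the root mean square difference of centred log2 values, as a description. For Cdkn1a these were Itm2b, a membrane protein, at 0.242 and Bnip3l, a mitophagy receptor, at 0.245, the smallest differences of any target. For Mdm2 they were Fbxw2 at 0.498 and Nfatc3 at 0.517, for Bax Cops5 at 0.411 and Tma16 at 0.418, and for Fas Asb5 at 0.613 and Cystm1 at 0.633. Phlda3 and Eda2r shared their nearest gene, Rhog, at 0.623 and 0.501. Trp53inp1 had the most distant neighbours, Usp28 at 0.749 and mt-Nd1 at 0.796. Among the targets themselves, Mdm2 and Bbc3 were nearest to each other at 0.712, and Fas and Trp53inp1 farthest apart at 3.14. For Bbc3, Ccng1 and Zmat3 the nearest genes were Fxr2 at 0.482, Mettl16 at 0.634 and Zfp598 at 0.5.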

How the data were processed

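The 10 targets and all gene lists were chosen with earlier results of these data known. Each deposited value is a normalised signal. In the table as deposited it equals a whole count plus 0.5, scaled to the library's size, and 100% of values came out whole within 0.02, so counts were recovered. The submitters' processing notes name FastQC, STAR, RSEM, limma and the mm39 build. Annotation and strand setting are not given in the sources used here. The labels' protocols give the SMART-Seq v4 kit, and all samples carry batch label 1. A floor of 3 counts corresponds to 0.145 to 0.320 on the table's scale across libraries, a limit for counting error only.

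Tests used limma 3.58.1 (R 4.3.3) on log2(value + 1) with a mean-variance trend, over 24 libraries in 6 groups. Genes at 1 or more in at least 4 libraries were tested (16985 of 17111). There were 12 contrasts: 3 between genotypes, 6 between days and 3 of the change in the genotype difference. Tests were two-sided, with Benjamini-Hochberg adjustment over all genes at 0.05. The code was tested on simulated data. Alternatives were no filter, a stricter filter (5 in at least 8 libraries), quantile normalization, pseudocounts 0.5 and 5, no trend, library weights, the replicate number as a block, only the groups compared, and each library left out in turn. On the recovered counts, edgeR 4.0.16 called 772 genes higher and 775 lower in KO at day 0, and DESeq2 1.42.0 called 1315 and 1221. Named genes were the 10 targets, Trp53, Mdm4, Lamp2 as the targeted gene, and up to 4 genes per list and comparison with the largest change among those called, at a mean of at least 8, whose groups did not overlap. Likeness named the 2 nearest genes at that mean, predicted genes left out. Values of such a listed gene on other days are given for context. Promoters came from the RefSeq table for GRCm38.p6, and exon overlaps from GENCODE M21.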

Additional observations from a re-analysis of the deposited data

Results flagged for a closer look

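Within groups, 4 of 60 sets of 4 libraries had 1 library far from the other 3, where chance gives about 1 in 20. Cdkn1a in WT at day 4 had replicate 2 at 306, below the others at 363.6 to 373.6. Mdm2 in KO at day 4 had replicate 4 at 168.2, where the others stood at 266.8 to 270.05. Trp53inp1 in KO at day 1 had replicate 1 at 46.85, above 19.51 to 22.64. Phlda3 in KO at day 4 had replicate 1 at 8.914, below 28.38 to 31.27.

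The genotype difference changed between days, by a test of that change in limma, in 6 of 30 pairs of a target and 2 days. Of all genes, 11.6% were called for day 1 against day 0. The shares were 3.99% for day 4 against day 0 and 3.97% for day 4 against day 1. For Fas the genotype difference changed by 1.78 from day 0 to day 1 and by −1.44 from day 1 to day 4 (log2). For Trp53inp1 the change was 2.856 from day 0 to day 1 and 2.208 from day 0 to day 4. For Cdkn1a it was −1.184 from day 0 to day 4 and −1.129 from day 1 to day 4. Their errors and adjusted p-values stand with each gene above.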

How the results depend on the processing

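Of the values for single targets under the alternatives, 2299 kept their direction and their side of the threshold, 63 gained a call, 79 lost one, 66 that were not called changed sign, and 1 called value reversed. That was Cdkn1a in KO for day 4 against day 1, at 0.46 under quantile normalization, and the cause was not tested. Library weights left 1 target called at day 0 between genotypes and 6 at day 1, against 1.82% and 29% of all genes. They gave 8 for WT day 4 against day 1, against 70.6% of all genes. For the change of the genotype difference they gave 1 from day 0 to 4 and 5 from day 1 to 4 (1.34% and 9.9%). Fitting only the groups compared gave 1, 6, 7, 1 and 5 for the same results. The shares of all genes there were 0.4%, 23.3%, 69.4%, 1.38% and 8.97%. The change from day 0 to 4 also fell to 1 with no trend and in edgeR (3.27% and 3.36% of all genes). That from day 1 to 4 fell to 1 under quantile normalization and with no trend (2.94% and 2.9%). Causes of these shifts were not tested. Leaving out 1 library gave 1 to 3 targets at day 0 between genotypes (1 without WT day 0 replicate 3 or KO day 0 replicate 4), 3 at day 1 and 0 at day 4. It gave 4 to 8 for WT day 1 against 0, 5 to 7 for WT day 4 against 0, 4 to 5 for WT day 4 against 1, 4 to 6 for KO day 1 against 0, 6 to 7 for KO day 4 against 0 and 7 to 8 for KO day 4 against 1. For changes of the genotype difference it gave 2 to 4 from day 0 to 1 (4 without WT day 0 replicate 4), 1 to 2 from day 0 to 4 and 1 to 2 from day 1 to 4. Shares of all genes were not taken for the fits with 1 library left out.

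Replicate numbers did not pair the libraries: correlations of same-numbered libraries ran from −0.0259 to 0.270, and 1 of 24 libraries correlated best with its own number throughout. With the replicate block, 3, 3 and 0 targets were called between genotypes at days 0, 1 and 4. The shares of all genes there were 9.64%, 9.05% and 1.03%. For the change of the genotype difference from day 0 to 4, 1 was called (3.9% of all genes), and Trp53inp1 was lost (0.0584). Bbc3 was lost in KO for day 4 against day 0 (0.0513), Phlda3 was gained in WT for day 4 against day 0 (0.0499), and no other call of a target changed under the block. The number of all genes called differed by over 1.5 times in the genotype comparisons under some settings, given here as shares of the genes tested. At day 0 the share was 9.75%, but 14.9% in DESeq2, 1.82% with library weights and 0.4% with day 0 alone. At day 1 it was 9.2%, but 5.86% under quantile normalization, 29% with weights and 23.3% with day 1 alone, and at day 4 it was 1.05%, but 0.5% in edgeR and, with 10946 genes tested in place of 16985, 0.923% under the stricter filter. For the change of the genotype difference from day 0 to 4 it was 3.99%, but 8.04% in DESeq2, 1.34% with weights and 1.38% with the groups compared alone. From day 1 to 4 it was 3.97%, but 9.9% with weights and 8.97% with the groups compared alone. Depth limits Bbc3 most, at 99 to 309 counts per group.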
